A study of Mus musculus with 18 samples.

Results

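Nuclear genes that control how many mitochondria a cell makes were followed in mouse NIH/3T3 embryonic fibroblasts with and without a working XPO4 gene. They were 8 of the 55401 genes counted in the mRNA-seq files, namely Ppargc1a, Ppargc1b, Esrra, Nrf1, Gabpa, Tfam, Tfb2m and Polrmt. These members were chosen on measured values, with the difference between the knockout (KO) and wild-type (WT) mRNA libraries already known, so their levels and fold changes in that comparison are given as a description and carry no test. All 8 passed the filter on low counts that left 14688 genes for testing, Ppargc1a through its KO-labelled libraries alone.

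PGC-1alpha, the product of Ppargc1a, and its relative PGC-1beta, the product of Ppargc1b, are coactivators. They bind no DNA themselves and are brought to promoters by transcription factors such as ERRalpha (Esrra), NRF1 (Nrf1) and GABPalpha (Gabpa, also called NRF2alpha). These factors switch on nuclear genes of the respiratory chain and of the machinery that copies and reads mitochondrial DNA, to which belong TFAM, which packages that DNA and starts its transcription, the initiation factor TFB2M and the mitochondrial RNA polymerase POLRMT. Ppargc1a is best known from brown fat, muscle and liver, where cold, exercise and fasting raise it.

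The series held 18 libraries of NIH/3T3 cells bought from ATCC. The KO cells were edited with CRISPR-Cas9 so that both copies of XPO4, which encodes the nuclear export receptor exportin 4, carried one and the same change, and they were compared with unedited WT cells. The study's methods name a single KO line, and nothing says that the replicates were separate cultures, so the p-values measure the spread between these libraries, which may be technical, and do not cover differences between edited lines. The 6 mRNA libraries, 3 of each genotype, held between 16974062 and 22057323 counted reads, and 12 circRNA libraries gave 2 per genotype from nuclear, cytoplasmic and whole-cell RNA after RNase R had digested linear RNAs.

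Several features of the libraries touch the values below. The column heading inside every mRNA count file names a read file of the opposite genotype, and the sample titles were followed here: if the headings were right, each mRNA direction below would turn. Xpo4 itself did not settle this, with 657, 614 and 685 counts in the WT-labelled and 712, 504 and 687 in the KO-labelled libraries, which overlapped. An edit need not lower the count of the edited gene, and the cause of these Xpo4 values was not tested. KO replicate 2 stood farther from the other KO libraries (chi-square per gene of 10.6 and 12.3) than any other pair of one genotype stood from each other (between 3.05 and 4.98). The extraction notes in the labels speak of peripheral blood, while all 12 fibroblast markers examined had at least 10 counts in every library, with a summed level of 23170 to 24640 CPM (counts scaled to library size) in WT and 21000 to 23390 in KO. In the blood list 4 of 12 markers were at 0 throughout (Cd3e, Hbb-bs, Hbb-bt and Hba-a2), and its sum was 12.7 to 15.2 CPM in WT and 7.70 to 8.27 in KO. Its leukocyte marker Ptprc had 108, 103 and 105 counts in WT and 32, 26 and 21 in KO (log2 fold change -1.78, edgeR adjusted p = 1.03e-05), the macrophage marker Cd68 had 140, 92 and 136 against 52, 75 and 65, and Hba-a1 had 0 in WT against 8, 7 and 6. Ppargc1a is a gene of fat and muscle. The 11 adipocyte markers summed to 7.38 to 8.05 CPM in WT and 13.9 to 16.3 in KO, which is near the level of Ppargc1a itself in KO (mean 17.4 CPM). In that list Cidea, Cidec, Lep and Cfd were at 0, and the 3 markers that passed the filter all passed the edgeR test: Fabp4 (10, 10 and 21 counts in WT, 80, 81 and 72 in KO; log2 fold change 2.72) and Dio2 (5.59) were higher in KO, and Retn (129, 121 and 143 against 12, 35 and 24; -2.24) was lower. The 10 skeletal muscle markers summed to 1.51 to 1.74 CPM in WT and 1.06 to 1.74 in KO, with Myod1, Myf5 and Pax7 at 0. The 8 epithelial markers summed to 4.97 to 5.46 CPM in WT and 0.562 to 1.40 in KO, with Epcam, Krt18 and Cldn4 at 0. The part of these markers in the results was not tested.

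Because Ppargc1a went from no read to a clear level between the genotypes, its promoter is shown first. The 250 bases before its RefSeq start (GRCm38.p6, chr5:51567726-51567975, minus strand) read as follows.
Ppargc1a promoter: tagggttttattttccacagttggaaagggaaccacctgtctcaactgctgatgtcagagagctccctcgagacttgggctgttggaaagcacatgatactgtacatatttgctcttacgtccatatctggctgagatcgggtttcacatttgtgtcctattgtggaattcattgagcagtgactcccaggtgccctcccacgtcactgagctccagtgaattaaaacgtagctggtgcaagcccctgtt
On both strands it held none of the 5 short motifs searched, which were GCGCATGC for NRF1, CCGGAAG for GABPA, AAGGTCA for ERRalpha, TGACGTCA for CREB and AAGATGGCG for YY1. Among 32851 mouse promoters of the same length these were found in 2.26%, 6.91%, 4.08%, 1.55% and 0.606%, in that order. No match says only that these letters are not in this window.

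The promoter of Polrmt (chr10:79746582-79746831, minus strand) held both an NRF1 and a GABPA motif, which are in capitals; the GABPA match lies on the opposite strand to the gene.
Polrmt promoter: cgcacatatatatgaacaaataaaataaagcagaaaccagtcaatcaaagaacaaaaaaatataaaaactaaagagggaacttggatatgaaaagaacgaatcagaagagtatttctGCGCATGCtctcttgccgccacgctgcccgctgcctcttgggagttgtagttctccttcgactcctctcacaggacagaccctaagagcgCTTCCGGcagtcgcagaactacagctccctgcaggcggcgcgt
Among the other members the motifs were met in the promoters of Tfam, Esrra and Gabpa, shown with 10 bases on each side and the motif in capitals, and in none of the windows of Tfb2m and Nrf1.
Tfam, GABPA motif: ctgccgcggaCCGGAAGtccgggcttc
Esrra, NRF1 motif on the opposite strand: cccctgttttGCATGCGCaggccggccc
Gabpa, GABPA motif on the opposite strand: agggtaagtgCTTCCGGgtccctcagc
Gabpa, YY1 motif on the opposite strand: gctaagactcCGCCATCTTtcctacactt
Whether any of these factors was bound there was not measured. The windows of 7 of the 8 members were in the RefSeq table.

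Among the coactivators, Ppargc1a had no read in any of the 3 WT-labelled libraries and 283, 277 and 357 counts in the KO-labelled ones. Per length and depth this was 2.41, 2.35 and 3.19 FPKM (fragments per kilobase of exon, scaled to the total of counted reads) in KO, with a mean of 2.65 ± 0.47 (SD, n = 3). The groups lay far apart. Against a floor of 3 counts in each WT-labelled library, the level in the lowest KO-labelled library was at least 101-fold higher. Ppargc1b, its closest relative, was lower in KO where Ppargc1a was higher: it had 77, 68 and 74 counts in WT and 56, 32 and 46 in KO, or 0.895 ± 0.068 and 0.638 ± 0.174 FPKM. The KO libraries all lay below the WT ones once depth was taken into account, with KO replicate 2 the lowest, and the log2 fold change was -0.49 ± 0.22 (SE). The third coactivator of the family, Pprc1, which is no member, had 2878, 2743 and 3210 counts in WT and 2221, 2026 and 2076 in KO and was lower in KO by a log2 fold change of -0.26 ± 0.06 (edgeR quasi-likelihood test, Benjamini-Hochberg adjusted p = 0.00172).

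The transcription factors that carry the coactivators moved little. Esrra, the orphan receptor ERRalpha, stood at 5.41, 6.67 and 5.42 FPKM in WT and 6.67, 7.26 and 6.10 in KO, and the groups overlapped (log2 fold change 0.20 ± 0.10). Nrf1 was the most even member, at 4.19, 4.57 and 4.76 FPKM in WT and 4.59, 4.54 and 4.54 in KO. Its KO values fell within the WT range, and its log2 fold change was 0.01 ± 0.07. Gabpa, the DNA-binding subunit of the GABP complex, stood at 13.9, 14.3 and 14.1 FPKM in WT and 13.0, 10.8 and 13.3 in KO. All KO values lay below all WT values, most of all in KO replicate 2, and the log2 fold change was -0.19 ± 0.07. The partner subunits of GABPalpha, Gabpb1 and Gabpb2, which bring the activating domain, were lower in KO, by log2 fold changes of -0.42 ± 0.07 (edgeR adjusted p = 0.000134) and -0.23 ± 0.09 (edgeR adjusted p = 0.0467). The libraries of Gabpb2 overlapped between the genotypes, those of Gabpb1 did not.

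The genes of the mitochondrial transcription machinery split. Tfam was higher in KO, at 9.89, 10.1 and 9.28 FPKM in WT against 13.1, 14.2 and 13.6 in KO, a fold of 1.40 (log2 fold change 0.48 ± 0.06). Polrmt was higher by nearly the same amount, at 9.65, 9.17 and 9.91 FPKM in WT against 14.2, 13.0 and 13.0 in KO (1.39-fold, log2 fold change 0.48 ± 0.06). Tfb2m was lower in KO: it stood at 9.38, 8.86 and 8.34 FPKM in WT and 5.70, 6.79 and 6.93 in KO, with a log2 fold change of -0.45 ± 0.09. The 3 proteins form one initiation complex at mitochondrial promoters, and their genes did not move in one direction. Of related genes outside that complex, Tfb1m, the methyltransferase of mitochondrial ribosomal RNA, had a log2 fold change of 0.12 ± 0.16 (edgeR adjusted p = 0.561). Tefm, the elongation factor, had one of 0.001 ± 0.11 (edgeR adjusted p = 0.994).

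**Figure D1:**
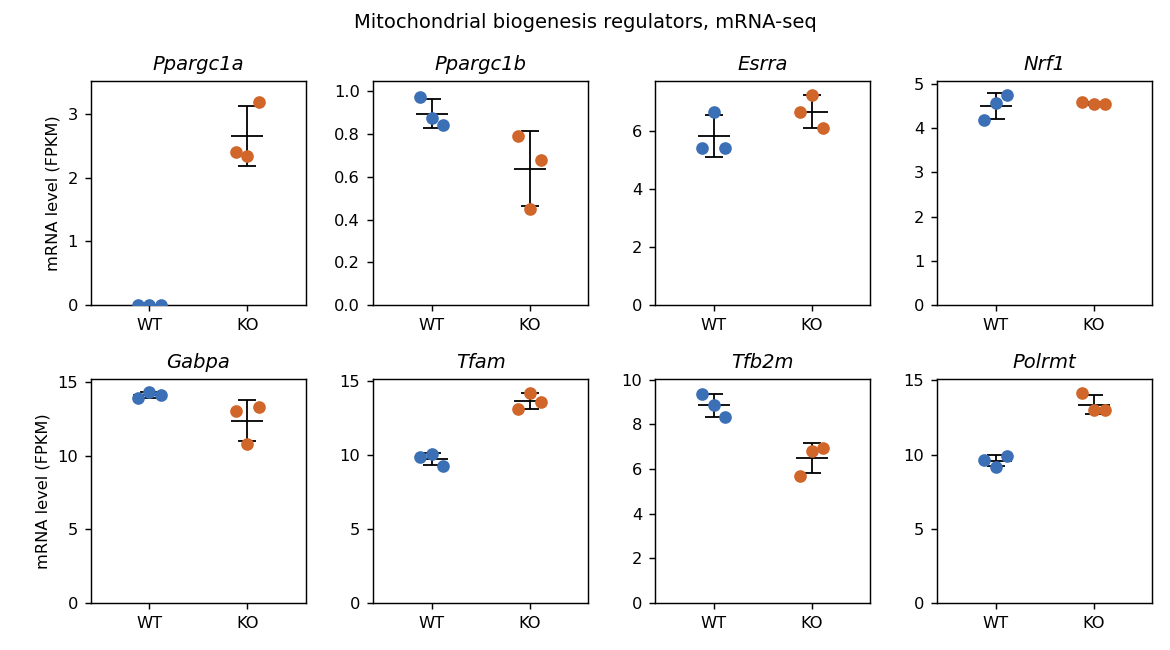
mRNA level (FPKM, linear axis from 0, each panel with its own scale) of the 8 members in the 3 WT-labelled and 3 KO-labelled libraries. Points are libraries, the long bar is the mean and the whiskers are ± 1 SD. Ppargc1a is at 0 in WT and between 2.35 and 3.19 in KO, Tfam and Polrmt sit higher in KO, Tfb2m sits lower, and the points of Esrra and Nrf1 overlap.

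Over the 8 members the libraries of the genotypes did not overlap in 6, against 57.8% of all genes tested. The members were chosen in this comparison, and nothing is read from that count. In the WT-labelled libraries the order of mean levels per length was Gabpa (14.1 FPKM), Tfam (9.74), Polrmt (9.58), Tfb2m (8.86), Esrra (5.84), Nrf1 (4.51), Ppargc1b (0.895) and Ppargc1a (0). Tfam and Polrmt, and Polrmt and Tfb2m, overlapped with their neighbour, and the other neighbours did not. In the KO-labelled libraries Tfam (13.6 FPKM) and Polrmt (13.4) led, followed by Gabpa (12.4), Esrra (6.68), Tfb2m (6.47), Nrf1 (4.56), Ppargc1a (2.65) and Ppargc1b (0.638). There Tfam, Polrmt and Gabpa overlapped in a row, as did Esrra and Tfb2m. At its level in KO, Ppargc1a had a higher mean FPKM than 33.1% of the genes tested, and Tfam than 71.5%.

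The position of the members was set beside their fold changes. Tfam (chr10:71225464-71238280, minus strand) and Polrmt (chr10:79736123-79746581, minus strand) lie on the same chromosome, where the other 688 genes tested had a median log2 fold change of 0.44 and a middle 50% from 0.16 to 0.73, against -0.003 for all genes tested. The values of Tfam and Polrmt were thus close to the middle of chromosome 10, at its percentiles 53.5 and 53.2, and the 182 and 237 genes that start within 10 Mb of them had medians of 0.51 and 0.46. Tfb2m (chr1:179528055-179546267, minus strand) lies on chromosome 1, whose other 884 genes had a median of -0.21. Its own value of -0.45 was at percentile 28.7 of that chromosome. Whether the number of copies of these chromosomes differed between the lines was not measured, and an effect of the edit and a difference between the cell lines carried along with it cannot be told apart here.

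For the other members the chromosomes were nearer to 0. The median was -0.04 on chromosome 5 for Ppargc1a (chr5:51454250-51567726), -0.01 on chromosome 18 for Ppargc1b (chr18:61298136-61400431), 0.00 on chromosome 19 for Esrra (chr19:6910977-6921840) and -0.05 on chromosome 16 for Gabpa (chr16:84834925-84863779). Chromosome 6 of Nrf1 (chr6:30047988-30153458) stood at -0.13, and Nrf1 itself at percentile 62.0 of it. Ppargc1a was thus high on a chromosome that was not, and the 41 genes tested within 10 Mb of it had a median log2 fold change of -0.11. Of the 5 nearest tested genes on each side, Dhx15, at 582.5 kb the closest, had 5095, 5085 and 5319 counts in WT and 4271, 3817 and 4128 in KO. These 10 neighbours ranged from -1.01 (Kcnip4) to 1.27 (Slit2).

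**Figure D2:**
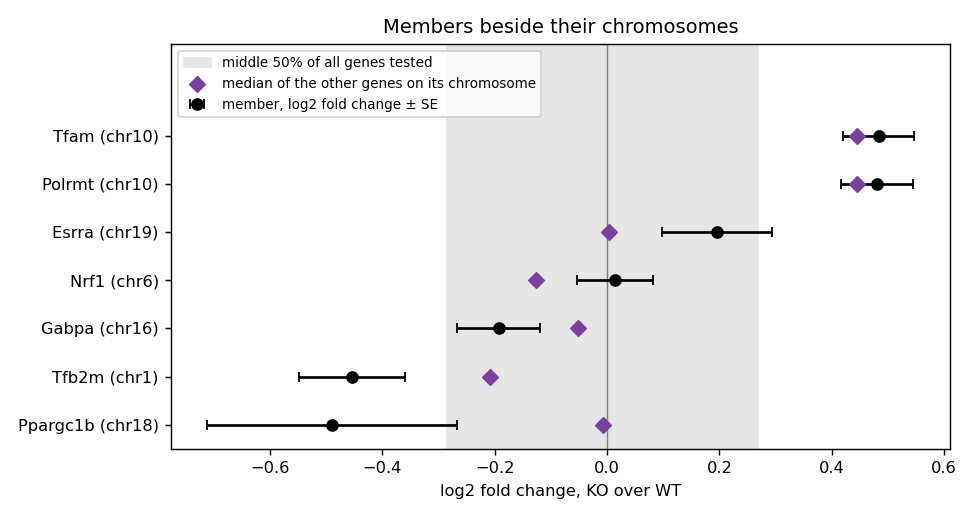
log2 fold change (KO over WT) of 7 members with its SE, beside the median of the other genes on the same chromosome (diamonds) and the middle 50% of all genes tested (grey band). Ppargc1a is left out because its WT-labelled libraries are at 0. Tfam and Polrmt lie next to the diamond of chromosome 10, Tfb2m lies below that of chromosome 1.

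The pattern of Ppargc1a, absent in one genotype and plain in the other, was met in few genes. Counting genes at 0 in all 3 WT-labelled libraries with at least 30 counts in each KO-labelled one gave 19, and the opposite pattern gave 2 (Lcn2 and Steap4). By mean count Ppargc1a was the third of the 19, after Ddx3y and Eif2s3y, and 5 of the 19 lie on chromosome Y, all of whose 7 tested genes had a median log2 fold change of 10.0. The genes whose log2(CPM + 0.5) followed that of Ppargc1a most closely over the 6 libraries were Cplx2, Sgpl1, Rab6b, Pappa2 and Dio2, with a Pearson r from 0.9995 to 0.9999. Dio2, which encodes the deiodinase that makes active thyroid hormone, had 3, 3 and 5 counts in WT and 150, 141 and 180 in KO. With 2 blocks of 3 libraries such correlations mostly follow the split between the genotypes, and 416 genes had an r above 0.99 with Ppargc1a.

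The other genes of the pathway were taken from 4 lists of nuclear genes and a list of genes of the mitochondrial genome, the members left out. Of 163 nuclear list genes tested, 78 passed the edgeR test at an adjusted p under 0.05, with 39 higher in KO and as many lower. This was 47.9%, beside 48.7% of all 14688 genes (25.1% higher and 23.6% lower), and the median log2 fold change was 0.02. The lists as a whole thus changed about as often as any gene. Without the 8 list genes on chromosome 10, of which 6 were higher and 1 was lower, 33 of 155 were higher and 38 lower, and the median was 0.00.

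Among PGC-1 partners and upstream regulators, 9 of 45 tested genes were higher and 19 lower in KO, with a median log2 fold change of -0.10. Highest by the naming rule were Thrb, the thyroid hormone receptor beta (59, 53 and 64 counts in WT, 193, 214 and 207 in KO; log2 fold change 2.02 ± 0.14, edgeR adjusted p = 6.8e-08), Perm1, a regulator of muscle metabolism that acts with the PGC-1 and ERR proteins (1.03 ± 0.15), and Prkag2, a gamma subunit of the energy sensor AMPK (0.86 ± 0.11). The ERR relative Esrrg had only 3, 3 and 0 counts in WT and 11, 10 and 14 in KO (edgeR adjusted p = 0.00333), and was named after its values were seen. Sirt1, which deacetylates PGC-1alpha, and Stk11, the kinase that activates AMPK, were higher by 0.47 and 0.51 and lie on chromosome 10. Lowest were Myc (2810, 2498 and 2943 counts in WT, 1321, 1310 and 1270 in KO; -0.86 ± 0.06, edgeR adjusted p = 5.41e-08), Foxo3 (-0.66 ± 0.06), itself on chromosome 10, and Lpin1 (-0.63 ± 0.06), a phosphatidate phosphatase that also acts as a coactivator of PGC-1alpha.

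Of 43 tested genes for replication, transcription and RNA processing in mitochondria, 4 were higher and 11 lower in KO, with a median log2 fold change of -0.03. The higher genes named were Mpv17, an inner membrane protein needed to keep mitochondrial DNA (0.58 ± 0.07), the nuclease and helicase Dna2 (0.43 ± 0.13), on chromosome 10, and Fastk, an RNA-binding protein (0.37 ± 0.06). Polg, the catalytic subunit of the mitochondrial DNA polymerase, was lower in KO, with 1854, 1632 and 1916 counts in WT and 1296, 1173 and 1225 in KO (log2 fold change -0.33 ± 0.06, edgeR adjusted p = 0.000774). Its accessory subunit Polg2 (-0.50 ± 0.12) and the helicase Twnk (-0.27 ± 0.07, edgeR adjusted p = 0.0066) were lower too, as were the ligase Lig3 (-0.41 ± 0.07) and Fastkd3, a protein of mitochondrial RNA processing (-0.34 ± 0.09). The replication gene Ssbp1 also passed and was lower in KO (-0.30 ± 0.08, edgeR adjusted p = 0.00683). Replication genes of the list that did not pass the test included Mgme1 (0.29), Primpol (0.21), Top1mt (-0.21), Top3a (-0.22) and Rnaseh1 (-0.14).

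Of 40 tested metabolic target genes of the PGC-1 coactivators, 14 were higher and 4 lower in KO, with a median log2 fold change of 0.09. Pdk4, the kinase that turns off pyruvate dehydrogenase, had 254, 205 and 261 counts in WT and 832, 764 and 797 in KO (1.95 ± 0.09, edgeR adjusted p = 1e-09). Ucp2, an inner membrane carrier, had 510, 450 and 580 counts in WT and 1299, 1507 and 1287 in KO (1.63 ± 0.08, edgeR adjusted p = 2.43e-09), and Acadm, the medium-chain acyl-CoA dehydrogenase of fatty acid oxidation, was higher by 0.91 ± 0.06. The lower genes named began with Sod2, the mitochondrial superoxide dismutase, which had 3666, 3682 and 4093 counts in WT and 1467, 1636 and 1501 in KO (-1.09 ± 0.06, edgeR adjusted p = 6.89e-09), followed by catalase, Cat (-0.52 ± 0.06), and the vessel growth factor Vegfa (-0.46 ± 0.06). The antioxidant gene Gpx1 also passed and was lower in KO (-0.29 ± 0.07, edgeR adjusted p = 0.0055). The antioxidant genes Prdx3 (0.10), Prdx5 (0.16), Txn2 (0.06) and Txnrd2 (0.07) of the list did not pass the test. The 11 genes of the list that did not reach the filter on low counts were Fabp3, Cd36, Ucp1, Ucp3, Fndc5, Ckmt2, Mb, Pck1, G6pc, Gdf15 and Fgf21. Cpt1b (-0.79, edgeR adjusted p = 0.14) and Slc2a4 (-0.93, edgeR adjusted p = 0.0739), best known from muscle and fat, were tested at low counts and did not pass.

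For mitochondrial import, chaperones and dynamics, 13 of 37 tested genes were higher and 5 lower in KO, with a median log2 fold change of 0.06. Tfeb, a regulator of lysosome genes (0.53 ± 0.11), the fusion GTPase Mfn1 (0.39 ± 0.06) and the mitophagy kinase Pink1 (0.36 ± 0.07) were highest. The fission adaptor Mief1 (-0.34 ± 0.06), the inner membrane GTPase Opa1 (-0.19 ± 0.06) and the prohibitin Phb2 (-0.18 ± 0.06) were lowest. The largest of these changes was thus smaller than those of Pdk4, Ucp2 and Sod2. The output of the mitochondrial genome itself could not be read: all 37 genes annotated on it, among them the 15 on the list that encode respiratory chain proteins and ribosomal RNAs, were listed at 0 in each of the 6 libraries.

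**Figure D3:**
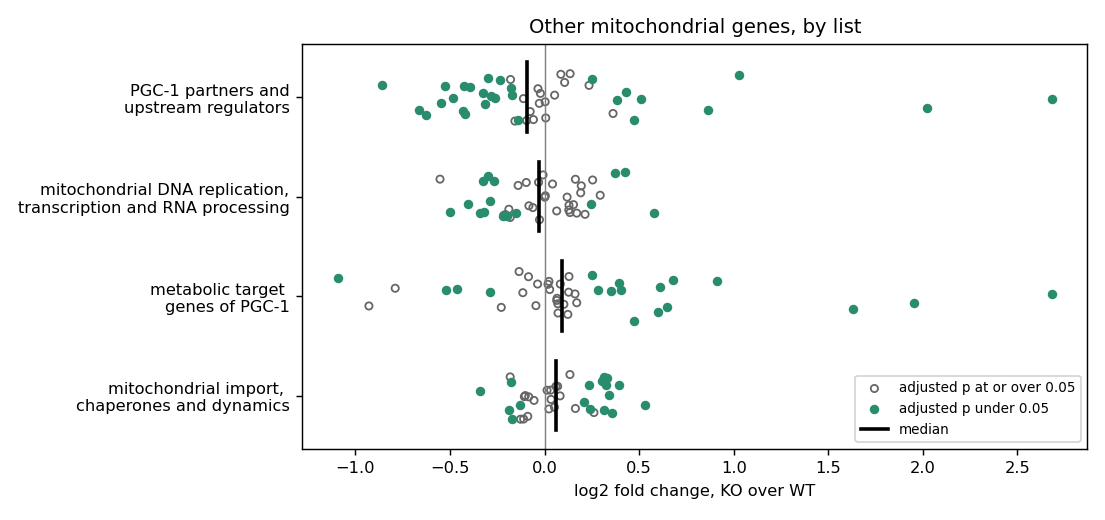
log2 fold change (KO over WT) of each tested gene in the 4 lists of nuclear genes, filled where the edgeR adjusted p was under 0.05. Black bars are medians, between -0.10 and 0.09, and points are spread vertically for sight alone. Esrrg and Mfn2 stand in both of the lists they belong to.

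CircRNAs of the member genes were measured in separate libraries that the choice of members did not use. A circRNA is a closed loop made when the end of a downstream exon is joined back to the start of an upstream one, and its deposited value is the count of reads over that backsplice junction. The lists held 15 circRNAs of 3 members, 2 of Ppargc1a, 10 of Nrf1 and 3 of Gabpa, with both ends on annotated exon edges in all 15. None was listed for Ppargc1b, Esrra, Tfam, Tfb2m and Polrmt, and none of the 15 in the nuclear libraries, whose totals were between 2189 and 4383 junction reads. The lowest total of a listed circRNA over its 4 libraries was 5 reads in the cytoplasm and 4 in whole cells, so a circRNA that is not listed may still have had reads. Lengths given are those of the annotated exons between both ends.

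Ppargc1a, without a read in the WT-labelled mRNA libraries, gave circRNA reads in the WT-labelled whole-cell libraries. The junctions are shown because they tell the circles apart: each is 40 bases in the direction of the gene, the 20 before the backsplice in lower case and the 20 after it in capitals.
Ppargc1a, 646 nt, chr5:51490017-51498228, exons 3 to 7: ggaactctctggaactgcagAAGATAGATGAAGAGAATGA
Ppargc1a, 1142 nt, chr5:51472598-51474411, exons 8 to 10: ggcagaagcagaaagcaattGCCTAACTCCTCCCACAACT
The 646 nt circle had 2 and 2 reads in WT whole cells against 3 and 7 in KO, and the 1142 nt circle had 5 and 2 in WT against 1 and 1 in KO. For both together this was 1.21 and 0.726 per 10000 junction reads in WT against 0.688 and 1.59 in KO, and the groups overlapped. The 646 nt circle had a log2 fold change of 1.32 ± 0.70 (edgeR adjusted p = 0.181), and the 1142 nt circle had too few reads to be tested. Of the 19 genes with the same mRNA pattern, 5 had whole-cell circRNAs, and all 5 had reads of them in a WT library. Of all 10700 listed whole-cell circRNAs, 9902 and 9907 had reads in WT replicates 1 and 2, so nothing is read from that count. Besides Ppargc1a, whose groups overlapped, the genes among these 5 had more circle reads in both KO libraries. Uty had 10 and 12 in WT against 19 and 24 in KO, and Mboat1 5 and 5 against 9 and 12. Trhde had 1 and 1 against 4 and 5, and Sobp 1 and 0 against 3 and 6. For these 5 genes the mRNA and circRNA libraries were not alike in whether WT held reads, and the cause was not tested.

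Nrf1 gave the most circles. Those whose reads differed between the genotypes in the cytoplasm are shown, with the 1125 nt circle, which shares its end with the 742 nt and the 1549 nt one. The exon edge before the backsplice is the same where the lower case letters are the same.
Nrf1, 1424 nt, chr6:30088833-30119106: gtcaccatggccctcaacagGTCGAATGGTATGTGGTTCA
Nrf1, 1549 nt, chr6:30088833-30126359: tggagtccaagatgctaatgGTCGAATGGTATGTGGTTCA
Nrf1, 1125 nt, chr6:30095340-30126359: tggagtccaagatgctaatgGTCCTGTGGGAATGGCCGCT
Nrf1, 742 nt, chr6:30115013-30126359: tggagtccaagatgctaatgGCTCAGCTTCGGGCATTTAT
Nrf1, 383 nt, chr6:30095340-30102309: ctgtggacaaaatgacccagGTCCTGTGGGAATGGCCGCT
Nrf1, 459 nt, chr6:30115013-30117157: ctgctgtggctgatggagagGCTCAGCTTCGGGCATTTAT
Nrf1, 300 nt, chr6:30116096-30117157: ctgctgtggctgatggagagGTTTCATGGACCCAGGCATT

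In the cytoplasm, 8 circRNAs of the members had at least 10 reads and were tested, and 7 passed the edgeR test at an adjusted p under 0.05, with 5 higher in KO and 2 lower. Of all 8917 cytoplasmic circRNAs tested, 53.5% passed. The calls rest on few reads and on 2 libraries per genotype: DESeq2 called 1 of the 8, and 879 of all 8917, and gave no adjusted p for the Gabpa circle. Without KO replicate 1, 5 of these circles could be tested and 0 passed, as did 0 of all 6879, while the log2 fold changes of the 1424, 742 and 383 nt circles described next were -2.56, -2.19 and 2.04. Without WT replicate 2, 2 of 8 passed, and without KO replicate 2, 4 of 6. The 742 nt circle of Nrf1 had 17 and 19 reads in WT against 0 and 2 in KO (log2 fold change -3.50 ± 0.70, edgeR adjusted p = 0.00067), and was the one DESeq2 called (adjusted p = 0.0495). The 1424 nt circle had 12 and 12 reads in WT against 1 and 1 in KO (-2.92 ± 0.66, edgeR adjusted p = 0.00137). These were the lower ones. DESeq2 gave a wider SE for both, 1.36 for the 742 nt circle and 1.35 for the 1424 nt circle.

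Higher in the KO cytoplasm were 4 circles of Nrf1 and 1 of Gabpa. The 383 nt circle of Nrf1 had 4 and 7 reads in WT against 16 and 12 in KO (1.88 ± 0.53, edgeR adjusted p = 0.00576), and the 1549 nt circle 2 and 3 in WT against 6 and 8 in KO (1.97 ± 0.57, edgeR adjusted p = 0.01). The 459 nt circle had 2 and 0 against 7 and 6 reads and the 300 nt circle 2 and 1 against 9 and 6 (edgeR adjusted p = 0.00278 and 0.00201). The 579 nt circle of Gabpa (chr16:84839081-84846369) had 2 and 0 reads in WT against 6 and 4 in KO (2.70 ± 0.83, edgeR adjusted p = 0.0104). The 1549, 1125 and 742 nt circles share an end, and while the first was higher and the third lower, the 1125 nt circle had 12 and 14 reads in WT against 5 and 13 in KO (-0.001 ± 0.66, edgeR adjusted p = 0.9995).

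The circles of Nrf1 together made up 6.55 and 6.83 of 10000 cytoplasmic junction reads in WT against 8.69 and 7.58 in KO. In whole cells the share was 6.92 and 7.08 in WT and 6.36 and 8.34 in KO, and there the groups overlapped. With 2 libraries against 2, an exact permutation test cannot reach p = 0.05, and none was run on these shares. In whole cells 0 of 9 member circRNAs passed the edgeR test, against 3.15% of all 8903 tested. There, 2 had an unadjusted p under 0.05, and DESeq2 also called 0. The calls over all whole-cell circRNAs moved from 280 to 2003 without scaling, 1777 with the replicate block, 7 in DESeq2 and 0 of 10700 without the filter. The nearest to the threshold was the 1000 nt circle of Nrf1 (chr6:30095340-30119106), with 8 and 4 reads in WT against 1 and 1 in KO (-2.39 ± 0.75, edgeR adjusted p = 0.0612). It passed with the replicate block (adjusted p = 0.0367), without scaling (0.0351) and without WT replicate 2 (0.025). Next came the 383 nt circle, with 1 and 3 reads in WT against 6 and 7 in KO (1.70 ± 0.63, edgeR adjusted p = 0.0887). The 742 nt circle, lower in the KO cytoplasm, had 8 and 7 reads in WT whole cells against 8 and 8 in KO (0.15 ± 0.44, edgeR adjusted p = 0.844).

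**Figure D4:**
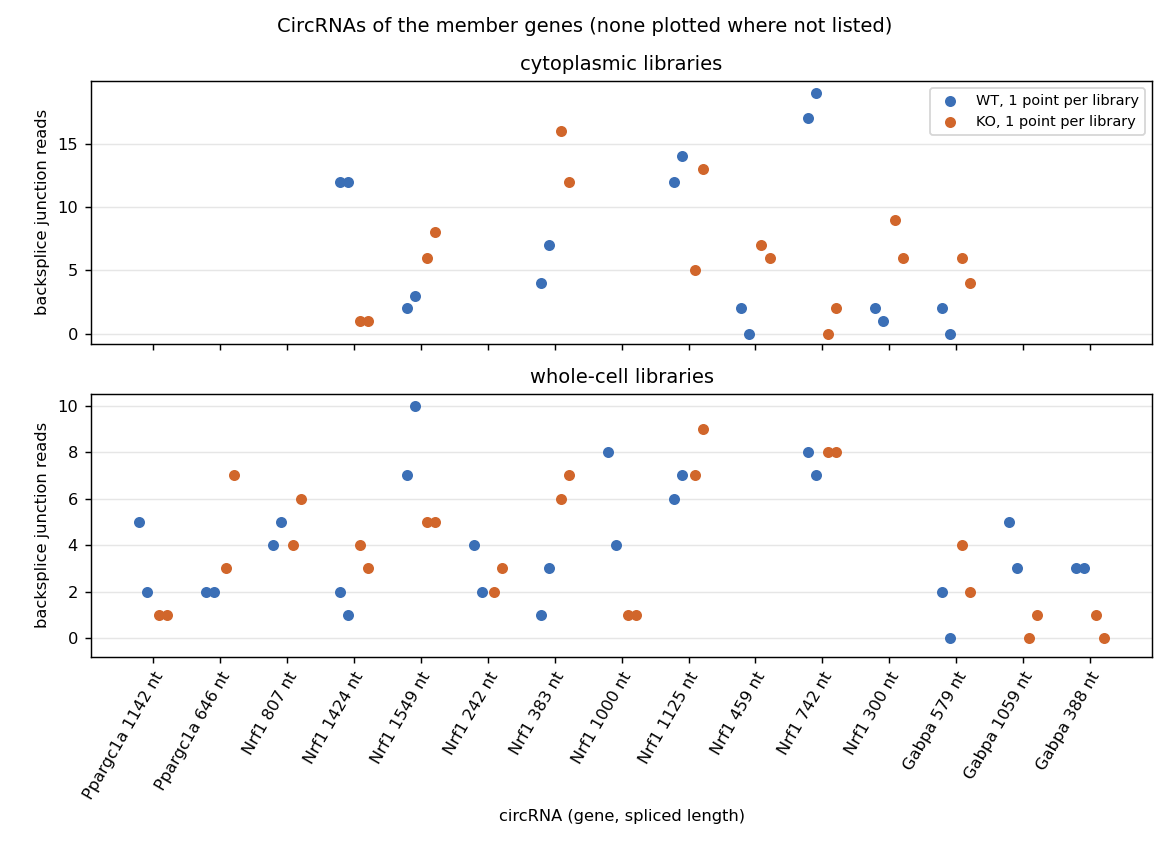
Backsplice junction reads (raw counts, linear axis) of the 15 circRNAs of Ppargc1a, Nrf1 and Gabpa in cytoplasmic and whole-cell libraries, with 1 point per library and none where the circRNA is not listed in that fraction. The 742 nt circle of Nrf1 is at 17 and 19 in WT against 0 and 2 in KO cytoplasm but at 7 to 8 in all whole-cell libraries, and both circles of Ppargc1a have reads in WT whole cells.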

How the data were processed

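RNA of NIH/3T3 cells had been sequenced by the authors, paired-end, as mRNA and, after RNase R, as circRNA libraries. The deposited mRNA files hold counts of reads per gene that the authors made with HISAT2 and featureCounts (version 2.0.0, exons summed per gene, no strand setting) on mm10, with the exon length of each gene, without normalization. The deposited circRNA files hold counts of backsplice junction reads per position. The authors called junctions with find_circ and joined the circRNAs found in both replicates, and their methods speak of TPM, though the values are whole numbers with unequal totals. No minimum of reads for a listed circRNA is named in the sources used here. Gene symbols came from the reference table (55141 of 55401 IDs matched), exons from GENCODE and promoters from RefSeq GRCm38.p6. The deposited circRNA starts lay 1 base before exon starts and are printed from the exon start. FPKM was computed from counts, exon length and the total counted reads.

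KO and WT were compared with edgeR (version 4.0.16, R 4.3.3; TMM scaling, quasi-likelihood test, edgeR's own filter for mRNA and at least 10 reads in all for circRNAs), with Benjamini-Hochberg adjustment over all features and a threshold of 0.05. The code was tested on simulated data first. Reads of a gene and an antisense partner cannot be told apart. CPM used TMM-scaled library sizes. The SE of an edgeR log2 fold change was not fitted: it is the absolute log2 fold change over the square root of the test's F value. For the circRNAs of the members it was smaller than the SE of DESeq2, so it may be too small there. Circle reads are few, so counting error is large, and PCR reads without molecular identifiers are not independent molecules.

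The members, lists and tests were chosen with earlier results of these data known. Named were all members, Xpo4, a fixed set of partners, the genes most like Ppargc1a, and in each list the 3 largest changes each way among genes past the threshold whose groups do not overlap and whose mean count reaches 50 in the higher genotype. Other list genes in the text, such as Esrrg, Sirt1, Stk11, Ssbp1, Gpx1, Mgme1, Prdx3 and Cpt1b, and single markers fall outside this rule. Alternatives were other scalings, no filter, DESeq2 (version 1.42.0), TPM, leaving out each library, a replicate block and, added after the data were seen, leaving out chromosome 10. The planned share of counts from mitochondrial genes could not be computed, since these are at 0.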

Additional observations from a re-analysis of the deposited data

Results flagged for a closer look

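Among the 6 member circRNAs listed in both fractions, 2 of Nrf1 did not overlap between genotypes in either fraction, in reads per total, and changed their order. Their order in whole cells was the reverse of that in the cytoplasm. The 383 nt circle of Nrf1 and the 579 nt circle of Gabpa did not overlap in either fraction either, but were higher in KO in both. How many of all circRNAs do the same was not counted, and nothing is read from the number of 2. The 1424 nt circle had a log2 fold change (KO over WT) of -2.92 in the cytoplasm and 1.21 in whole cells. The 1549 nt circle had 1.97 in the cytoplasm and -0.70 in whole cells. Neither whole-cell value passed the edgeR test (adjusted p = 0.296 and 0.335), the difference between the fractions was not tested, and the whole-cell values rest on 10 and 27 reads in all.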

How the results depend on the processing

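The count of genes past the threshold was 7151 and moved between 6140 and 7696 over the alternatives, and that of the list genes was 78 and moved between 66 and 88, with 71 without chromosome 10, so that neither moved by more than 1.5 times. With the replicate number as a block there were 7124 genes and 77 list genes. The numbers did not pair the mRNA samples: deviations of same-numbered libraries had correlations of 0.09, 0.06 and -0.12, and of the WT libraries only replicate 2 correlated best with the KO library of its own number. In the cytoplasm the block called 7 circRNAs of the members, no scaling and no filter 7, DESeq2 1, and leaving out 1 library between 0 and 5. In whole cells, where 0 were called, the block and no scaling each called 1, the 1000 nt circle of Nrf1, and leaving out 1 library gave between 0 and 1. The cause of these moves was not tested. The log2 fold changes of 7 members kept their direction under all 11 alternatives, those of Nrf1 under 10, between -0.04 and 0.06. Without KO replicate 2 the value of Ppargc1b was -0.29 and that of Gabpa -0.10. That of Ppargc1a was 10.9 in DESeq2 and 11.4 in edgeR, neither of which is a bound, since its WT-labelled libraries were at 0. TPM in place of FPKM moved the ratio of the 7 members other than Ppargc1a by less than the spread between replicates. Depth limits the circRNAs too: the Ppargc1a circles had 9 and 14 whole-cell reads over 4 libraries, and no difference between genotypes was detectable there at this depth.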
